A study of Homo sapiens with 12 samples.

Results

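The 10 enteroendocrine genes described here were CHGA, CHGB, SCG2, SCG5, PCSK1, NEUROD1, INSM1, GCG, SYP and ENO2, taken as a list of genes by name. The arrays named a probe set for 8 of the 10, with 9 probe sets in all, out of 19774 named genes and 54715 probe sets. PCSK1, a convertase that cuts prohormones, and NEUROD1, a transcription factor of endocrine differentiation, were not analysed here. The study put the miR-200 microRNAs back into 3 established gastrointestinal cancer lines, HUTU-80, MDST8 and NCI-H716, whose own miR-200 loci are methylated according to the labels, and measured total RNA on 12 Affymetrix arrays. Each line had 1 control array, whose treatment the labels do not describe. Each line also had an array after lentiviral transfer of the cluster miR200c141 and an array after transfer of miR200ba429. HUTU-80 had a pair of miR200c141 arrays, titled 1:3 and 1:5, and MDST8 and NCI-H716 each had an array of cells that received both clusters. Cells were sorted for GFP 48 hours after the virus, the second virus followed 24 hours after that sort, and RNA was taken on day 7. The labels do not say that any arrays came from separate cultures, so p-values measure only the spread between these arrays, which may be technical.

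Enteroendocrine cells are the hormone-releasing cells of the gut epithelium. They pack peptide hormones with granins into dense-core vesicles, cut the prohormones there with convertases, and release them on stimulation. In carcinomas of the gut, chromogranin A and synaptophysin are the usual markers of such differentiation. The miR-200 family is known for repressing the transcriptional repressors ZEB1 and ZEB2 and so for keeping epithelial features.

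The clusters delivered to the cells encode 5 microRNAs that fall into 2 groups by their seed, the bases that pair with a target and that stand in capitals at positions 2 to 8. The mature sequences, from RefSeq on build GRCh38.p14, are shown because each cluster carries both seeds.
hsa-miR-200c-3p: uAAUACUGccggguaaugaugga
hsa-miR-141-3p: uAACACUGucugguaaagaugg
hsa-miR-200b-3p: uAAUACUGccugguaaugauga
hsa-miR-200a-3p: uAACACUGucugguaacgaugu
hsa-miR-429: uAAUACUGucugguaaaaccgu
miR-200c-3p, miR-200b-3p and miR-429 shared the seed AAUACUG, and miR-141-3p and miR-200a-3p the seed AACACUG. The c141 cluster maps to chr12:6963742-6963764 and chr12:6964155-6964176, and the ba429 cluster to chr1:1167160-1167181, chr1:1167916-1167937 and chr1:1169055-1169076, all on the plus strand. The arrays did not measure the mature microRNAs.

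The promoters of 3 of the genes are given as the 120 bases before the gene's start on build GRCh38.p14 from RefSeq. Their part in the levels described below was not tested. Capitals mark matches, on either strand, to 3 motifs with no overlap among them. They were CACCTG, an E-box bound by ZEB proteins, the cAMP response element TGACGTCA, and TATAAA, the TATA box. The CHGA stretch is chr14:92923030-92923149 on the plus strand, the SCG5 stretch chr15:32641590-32641709 on the plus strand, and the GCG stretch chr2:162152248-162152367 on the minus strand.
CHGA promoter: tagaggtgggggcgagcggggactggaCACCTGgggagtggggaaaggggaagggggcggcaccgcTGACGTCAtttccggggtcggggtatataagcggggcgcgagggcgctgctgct
SCG5 promoter: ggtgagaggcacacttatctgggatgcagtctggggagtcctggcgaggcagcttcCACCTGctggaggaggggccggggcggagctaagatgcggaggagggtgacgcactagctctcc
GCG promoter: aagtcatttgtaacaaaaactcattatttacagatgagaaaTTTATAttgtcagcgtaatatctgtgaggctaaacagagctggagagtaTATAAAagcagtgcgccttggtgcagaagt
The E-box match began 93 bases before the start of CHGA and 64 before that of SCG5, the cAMP response element 54 before CHGA, and the TATA box 30 before GCG with a reverse match at 79. Over 35116 promoters of 300 bases, 20.6% held the E-box letters, 1.85% the cAMP response element and 11.5% the TATA box. Of the 7 listed genes with a promoter in the table, E-box letters were in 2 (CHGA and SCG5), the cAMP response element in 2 (CHGA and PCSK1) and the TATA box in 2 (GCG and PCSK1). A match describes the letters only.

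Values are log2 intensities, so 1 unit is a doubling of signal, and a level was called above background when it exceeded 5.43, the highest of 23 nonspecific control probe sets over all arrays. By this measure 7 of the 8 measured genes exceeded it on the NCI-H716 control array, 3 on the MDST8 one and 1 on the HUTU-80 one, against 47.7%, 48.8% and 46.8% of all genes. HUTU-80 carried GCG alone, MDST8 carried SCG2, SCG5 and ENO2, and NCI-H716 carried every measured gene except SYP. The plot of levels by array shows that the lines, rather than the constructs, separated most of the points. In bulk RNA, fewer expressing cells and less RNA per cell cannot be told apart.

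**Figure D1:**
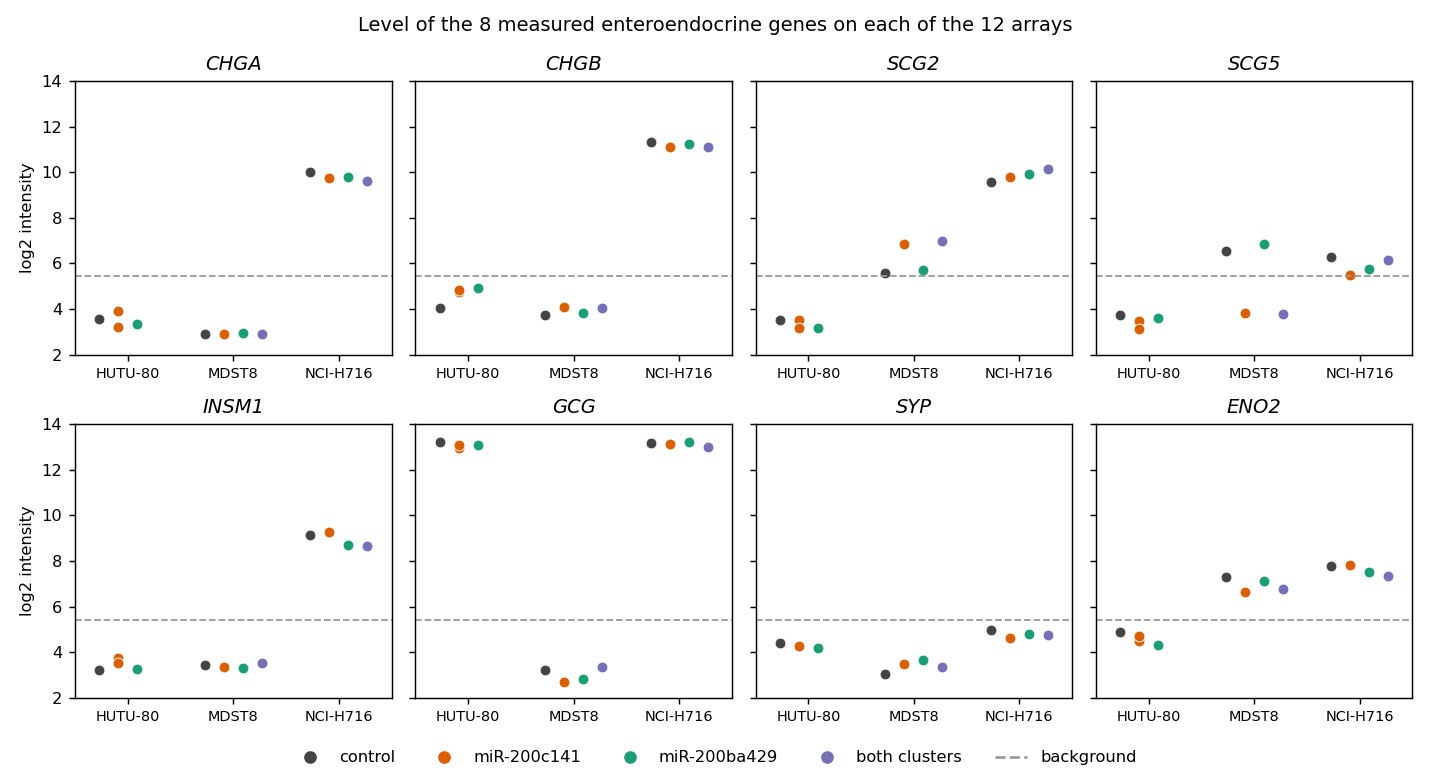
Level of each of the 8 measured genes (log2 intensity, vertical axis) on the 12 arrays, grouped by line along the horizontal axis. Each point is 1 array, coloured by construct, and the dashed line is background at 5.43. CHGA, CHGB and INSM1 stood above it in NCI-H716 only, GCG in HUTU-80 and NCI-H716, SYP in none, and SCG5 in MDST8 lay below it on both arrays that received miR200c141.

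The granins are acidic proteins that drive the formation of dense-core granules. CHGA, chromogranin A, read 10.01 in the NCI-H716 control, 9.75 with miR200c141, 9.81 with miR200ba429 and 9.60 with both, and between 2.90 and 3.93 on the 8 other arrays. The NCI-H716 arrays did not overlap those of either other line. How many of all genes part the lines in this way was not counted, but 43.3% to 51.7% were called between pairs of lines in the tests below. CHGB, chromogranin B, read 11.33, 11.10, 11.22 and 11.09 on the same 4 NCI-H716 arrays, and between 3.73 and 4.92 elsewhere. Both chromogranins were therefore under background in the other lines, and no construct brought either above it. SCG2, secretogranin II, the precursor of secretoneurin, showed a graded pattern. It read 3.52 in the HUTU-80 control and 3.15 to 3.52 with the constructs, 5.59 in the MDST8 control and 5.73 to 7.00 with the constructs, and 9.59 in the NCI-H716 control and 9.78 to 10.16 with the constructs. The ranges of the 3 lines did not overlap, again without a count over all genes.

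SCG5 encodes 7B2, a chaperone of the convertase PC2 in the secretory pathway. It read 6.53 in the MDST8 control and 6.86 with miR200ba429, but 3.84 with miR200c141 and 3.77 with both clusters. The NCI-H716 arrays read 6.28 in the control, 5.50 with miR200c141, 5.78 with miR200ba429 and 6.15 with both, all above background. The HUTU-80 arrays stayed between 3.14 and 3.74, below it. SCG5 was thus the listed gene whose arrays within a line spread the most. In MDST8 it lay below background on the 2 arrays with miR200c141 and above it on the 2 without. How many of all genes split those few arrays the same way was not counted.

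INSM1, a zinc-finger transcription factor of endocrine progenitors, read 9.15 in the NCI-H716 control, 9.26 with miR200c141, 8.72 with miR200ba429 and 8.67 with both. On the other 8 arrays it lay between 3.22 and 3.75, below background. A second INSM1 probe set lay between 2.69 and 3.83 on all 12 arrays, so the gene's level in NCI-H716 rests on 1 of its 2 probe sets.

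GCG, the proglucagon gene from which L cells cut GLP-1, was as high in HUTU-80 as in NCI-H716. It read 13.21 in the HUTU-80 control, 12.97 and 13.08 on the miR200c141 arrays and 13.09 with miR200ba429. The NCI-H716 arrays read 13.18, 13.12, 13.21 and 13.00 in the order control, miR200c141, miR200ba429 and both. These ranges overlapped, whereas MDST8 lay between 2.72 and 3.36. GCG ranked 18 of 19774 genes in the HUTU-80 control and 15 in the NCI-H716 control, by a level that also depends on each probe set's own response. The highest probe set on these control arrays read 13.48 and 13.59, so GCG lay near the top of the scale.

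SYP, synaptophysin, a membrane protein of small vesicles, was above background on no array. Its levels ran from 3.04 to 3.64 over the MDST8 arrays, 4.20 to 4.42 over those of HUTU-80 and 4.62 to 4.98 over those of NCI-H716. ENO2, neuron-specific enolase, is a glycolytic enzyme used as a neuroendocrine marker. It read 4.89 in the HUTU-80 control and 4.33 to 4.73 with the constructs, 7.30 in the MDST8 control and 6.66 to 7.13 with the constructs, and 7.77 in the NCI-H716 control and 7.36 to 7.81 with the constructs. HUTU-80 lay below background throughout and the other lines above it. The MDST8 and NCI-H716 ranges nearly touched, the first reaching up to 7.30 and the second down to 7.36.

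The differences between lines were tested over all genes with limma, with the construct as a covariate and Benjamini-Hochberg adjustment, on 11 samples after the HUTU-80 miR200c141 pair was averaged. Each line is 1 line, so the test addresses these cultures and not a tumour type. Where every array of a line lay below background, the difference is a lower bound, taken against the background level, and the fitted value beside it is no exact fold. Against HUTU-80, NCI-H716 was higher in 6 of 8 listed genes, and lower in 0, where 45.6% of all genes were called, 20.5% higher and 25.1% lower, with a fitted median of 4.34 over the 8 against -0.03 over all genes. With all levels below background set to it, the median was 2.85 against 0.00. All 6 were below background in HUTU-80. CHGA was at least 20.6-fold higher (fitted 6.33 ± 0.18, SE, adjusted p = 1.77e-10), CHGB at least 54.0-fold (fitted 6.58 ± 0.20), SCG2 at least 21.7-fold (fitted 6.36 ± 0.26) and INSM1 at least 11.5-fold (fitted 5.60 ± 0.20). ENO2 was at least 4.54-fold higher (fitted 3.07 ± 0.18) and SCG5 at least 1.41-fold (fitted 2.59 ± 0.55, adjusted p = 0.00198). GCG differed by -0.01 ± 0.13 (95% interval -0.31 to 0.28), and SYP by 0.51 ± 0.20 (adjusted p = 0.058), which did not pass.

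Against MDST8, NCI-H716 was higher in 7 of 8 genes, and lower in 0, where 51.7% of all genes were called, 25.3% higher and 26.4% lower, with a fitted median of 4.56 against 0.01, and 3.55 against 0.00 with levels below background set to it. GCG, CHGB, CHGA and INSM1 were below background in MDST8. GCG was at least 208.1-fold higher (fitted 10.10 ± 0.12, limma adjusted p = 1.86e-12), CHGB at least 54.0-fold (fitted 7.26 ± 0.18), CHGA at least 20.6-fold (fitted 6.87 ± 0.16) and INSM1 at least 11.5-fold (fitted 5.55 ± 0.18). Between levels above background, SCG2 was higher by 3.58 ± 0.23 and ENO2 by 0.64 ± 0.16 log2 units. SYP was higher by 1.42 ± 0.18 between levels that were both below background. SCG5 differed by 0.68 ± 0.49 (95% interval -0.39 to 1.75), which did not pass, with the spread of its MDST8 arrays entering that interval. It passed without the MDST8 miR200ba429 array (1.21, adjusted p = 0.0424).

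Between the remaining lines, MDST8 was higher than HUTU-80 in 3 of 8 genes and lower in 4, where 43.3% of all genes were called, 20.5% higher and 22.9% lower. All levels of SCG2, ENO2 and SCG5 in HUTU-80 were below background. SCG2 was at least 1.81-fold higher in MDST8 (fitted 2.78 ± 0.26) and ENO2 at least 2.91-fold (fitted 2.43 ± 0.18). SCG5, above background on 2 of 4 MDST8 arrays, gave a fitted 1.91 ± 0.55 (limma adjusted p = 0.0136). GCG was at least 205.0-fold lower (fitted -10.11 ± 0.13, adjusted p = 2.08e-12). The lower calls for CHGA (-0.54 ± 0.18), CHGB (-0.68 ± 0.20) and SYP (-0.91 ± 0.20) compared levels that were all below background, and INSM1 differed by 0.05 ± 0.20. The calls for CHGA, CHGB and SCG5 were lost without some single samples, at adjusted p of 0.0599 to 0.131: CHGA without the HUTU-80 control, HUTU-80 miR200c141, MDST8 control or MDST8 miR200c141, CHGB without HUTU-80 miR200c141, HUTU-80 miR200ba429 or MDST8 miR200ba429, and SCG5 without the HUTU-80 control, HUTU-80 miR200ba429, MDST8 control or MDST8 miR200ba429.

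Levels of CHGA, CHGB and INSM1 ran together over the 11 samples, with a Pearson r of 0.997 for CHGA with CHGB and 0.995 for CHGA with INSM1, while GCG and SCG5 gave -0.13. These points share 3 lines, so the values mostly restate the difference between lines. Outside the list, the genes most like CHGA in level were SCG3 (r = 0.999), STMN2 and VAV3 (both 0.998). INSM1 was most like FFAR2 (0.999), GSTA1 and SPON1, and CHGB most like RAP1GAP (0.998), PGAP4 and AGR2. GCG was most like GPR37 (0.998), PDCD6P1 and FKBP5, and ENO2 most like STOM (0.995), PFKM and ERGIC1. SCG2 was most like ARHGEF28 (0.995), SESTD1 and CYRIA, whereas the nearest genes to SCG5 reached only 0.894 (RGMB), 0.893 (INTS11) and 0.888 (CD70).

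Other genes of the secretory programme were counted in 7 lists that together held 76 measured genes. The shares of all genes above background on the same controls were those given for the listed genes, 47.7% in NCI-H716, 48.8% in MDST8 and 46.8% in HUTU-80, and a list's count near them says little about the list. Of 8 genes for granins and prohormone processing, 6 were above background in the NCI-H716 control, 4 in the MDST8 control and 1 in the HUTU-80 control. CPE, carboxypeptidase E, which trims cut prohormones, read 11.38 in the NCI-H716 control, 6.84 in that of MDST8 and 2.91 in that of HUTU-80. SCG3, a granin-binding sorting protein, read 10.61, 2.65 and 3.51 in the same order, and PAM, the peptide-amidating enzyme, 9.48, 11.05 and 11.16. Between NCI-H716 and HUTU-80, 5 of these 8 genes were higher in NCI-H716 and 2, PCSK1N and PAM, lower, where 20.5% and 25.1% of all genes were called.

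Hormones and amine enzymes were sparse in all lines, with 1 of 14 genes above background in each control, a different gene in each. It was NTS, neurotensin, in HUTU-80 (9.45), CCK, cholecystokinin, in MDST8 (7.41), and DDC, the decarboxylase that makes dopamine and serotonin, in NCI-H716 (11.70). Of 14 endocrine transcription factors, 7 were above background in the NCI-H716 control, close to the share of all genes, and 5 in each other control. ISL1, FOXA2 and SOX4 read 10.46, 10.41 and 11.19 in the NCI-H716 control. In the same order they read 7.13, 4.09 and 10.99 in the HUTU-80 control and 5.16, 6.18 and 11.68 in that of MDST8. PAX6, a factor known to activate the GCG gene, was high in HUTU-80 (11.54) and MDST8 (8.48), but read 4.09, below background, in the control of NCI-H716. PAX6 was named after its values were seen, and the part of these factors in the GCG level was not tested.

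Of 16 genes of vesicle exocytosis, 9 were above background in the NCI-H716 control, 5 in that of MDST8 and 3 in that of HUTU-80. SYT1, a calcium sensor of vesicle fusion, read 10.63, 11.82 and 8.12 in those controls, SNAP25, a fusion protein, 9.34, 10.34 and 3.27, and SYT4 9.23, 3.44 and 2.84. Of 7 neural or neuroendocrine surface and cytoplasmic genes, 5, 3 and 3 were above background, with STMN2 at 10.49, UCHL1 at 9.64 and NCAM1 at 9.61 in NCI-H716. Of 8 secretion receptors and channels, 2 were above background in NCI-H716 and 0 in the other controls. FFAR4, a fatty acid receptor, read 6.68, GPBAR1, the bile acid receptor, 5.75, and ABCC8, a subunit of the ATP-sensitive potassium channel, 3.22 in the NCI-H716 control. Of 9 repressors, 6, 8 and 5 were above background, and RCOR1, ZEB1 and HES1 led in NCI-H716 at 10.38, 10.15 and 9.49.

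Markers of colorectal epithelium set NCI-H716 apart in the same way. Of 12 such markers, 10 were above background in the NCI-H716 control and 1 in each of the others, and their summed log2 level ran from 48.2 to 58.5 over the HUTU-80 arrays, 48.7 to 51.2 over those of MDST8 and 88.9 to 110.0 over those of NCI-H716. CDX2, CDH17 and VIL1 were above background only in NCI-H716. All 6 goblet cell markers were above background in NCI-H716 (summed 66.4 to 70.3) and 0 of 6 in MDST8 (19.1 to 19.9) and HUTU-80 (20.1 to 21.7), although all 3 lines are labelled colorectal cancer. Of 7 absorptive cell markers, 1 (SI) was above background in the NCI-H716 control and 0 in the others. On the controls, in the order HUTU-80, MDST8, NCI-H716, fibroblast markers read 5, 3 and 2 of 6 above background, and neuron markers 3, 2 and 3 of 7. Tuft cell markers read 0, 1 and 0 of 4, and immune and endothelial markers 0 of 4 each in all lines. The part of these differences in the line contrasts was not tested.

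**Figure D2:**
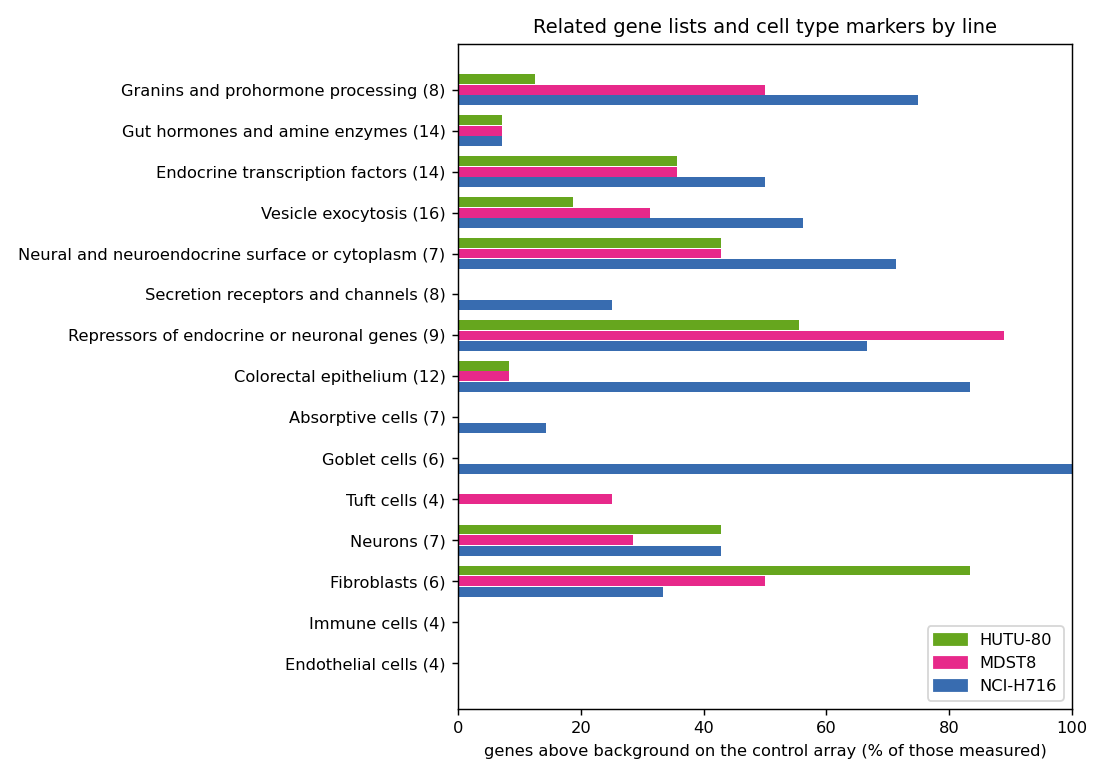
Percent of the measured genes of each list above background on the control array of each line (horizontal axis), with the number of genes measured in brackets after the list's name. Bars are single control arrays with no error. NCI-H716 had the longest bar for granins, vesicle genes, colorectal epithelium and goblet cells, and HUTU-80 for fibroblast markers.

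The comparison the study was built for asks what the clusters changed. In the limma fit with a term for the line, 0 of 8 listed genes passed with any construct, with miR200c141, with miR200ba429 and between those clusters, where 0% of all genes passed in each. At an unadjusted p under 0.05 there were 1851, 1302, 1214 and 705 genes over all and 1, 1, 0 and 0 of the listed ones. With both clusters, which only MDST8 and NCI-H716 received, 0 of 8 listed genes passed while 6.14% of all genes did (2.33% higher and 3.81% lower), and 2 of 8 had an unadjusted p under 0.05. The median over the 8 genes was -0.07 with both clusters against 0.00 over all genes. All comparisons of a construct with control use the same 3 control arrays.

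SCG5 gave the largest fitted values among the listed genes, with wide errors. It differed from control by -1.30 ± 0.56 with miR200c141 (SE, adjusted p = 0.751), by -0.10 ± 0.56 with miR200ba429 and by -1.31 ± 0.65 with both (adjusted p = 0.27, 95% interval -2.74 to 0.12). SCG2 differed by 0.41 ± 0.27, 0.05 ± 0.27 and 0.82 ± 0.31 (adjusted p = 0.149, 95% interval 0.14 to 1.50 before adjustment), in the same order. ENO2 differed by -0.29 ± 0.19, -0.33 ± 0.19 and -0.49 ± 0.22 (adjusted p = 0.216). It was lower than the control of its line on 8 of 9 construct arrays, as was SCG5. GCG was lower on 7 of 9 and each remaining listed gene on 3 to 6. Arrays of a line share its control, and ENO2 was below background on every HUTU-80 array. The other 5 genes gave fitted differences between -0.25 and 0.33 in every construct comparison. In HUTU-80 and NCI-H716 the GCG level of every construct array lay between 0.24 below and 0.03 above the control of its line, at levels near the top of the scale.

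**Figure D3:**
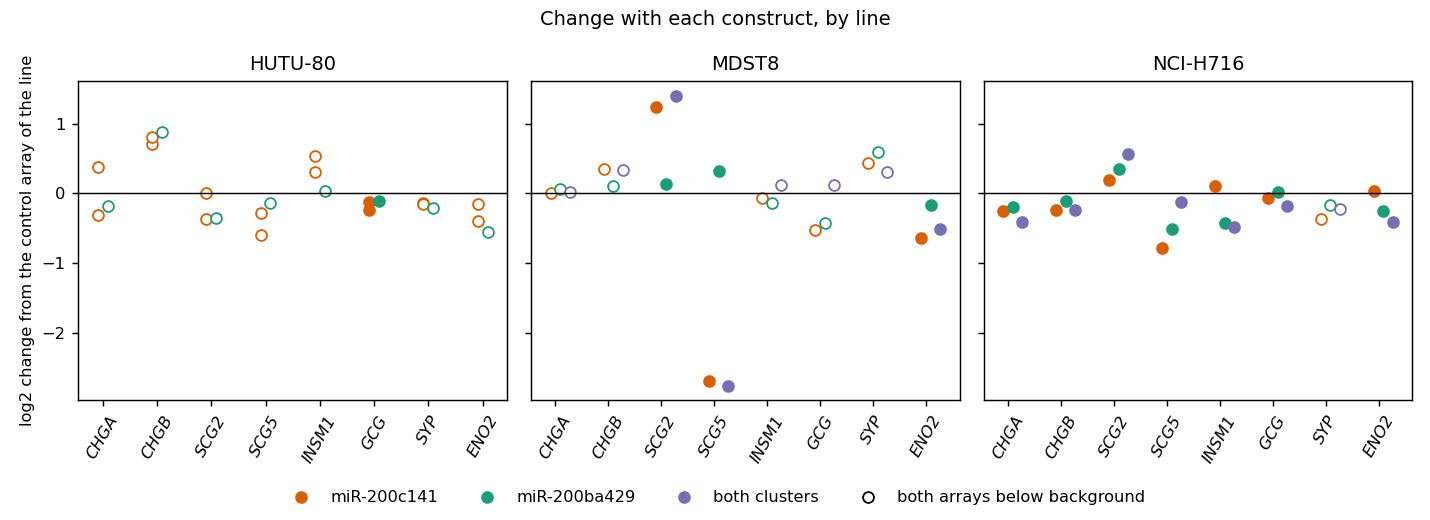
Difference of each construct array from the control array of its line (log2, vertical axis) for the 8 measured genes, in 1 panel per line. Each point is 1 array, coloured by construct, and open points mark pairs of arrays that were both below background. SCG5 at -2.69 and -2.76 and SCG2 at 1.24 and 1.41, all in MDST8 with miR200c141 alone or with both clusters, were the values past 1 unit.

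Array by array, only SCG2 and SCG5 passed 1 log2 unit, and only in MDST8. On the miR200c141 array SCG2 stood 1.24 above its control, where 1.12% of all genes passed 1 unit upward, and SCG5 2.69 below, where 1.06% passed downward. With both clusters SCG2 stood 1.41 above, where 3.2% passed upward, and SCG5 2.76 below, where 3.73% passed downward. On the MDST8 miR200ba429 array they stood 0.14 and 0.33 above the control. None of the 8 genes passed 1 unit there, where 0.359% of genes passed upward and 0.845% downward. Nor did any on the HUTU-80 arrays, where 0.931% and 0.748% passed with miR200c141 1:3, 0.698% and 0.344% with 1:5 and 1.36% and 0.607% with miR200ba429. The same held in NCI-H716, where 1.6% and 1.06% passed with miR200c141, 1.03% and 0.743% with miR200ba429 and 2.82% and 2.84% with both. Past 1 unit the same way on both miR200c141-bearing arrays, and above background on at least 1 of the 3 arrays, were 0.789% of all genes upward and 0.622% downward, SCG2 and SCG5 among them. In NCI-H716 no listed gene met that criterion, where 1.21% and 0.632% of all genes did. Since the SCG5 level with miR200c141 lay under background, the drop itself is bounded by the control, 1.10 above background, and the miR200ba429 array, 1.43 above it.

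**Figure D4:**
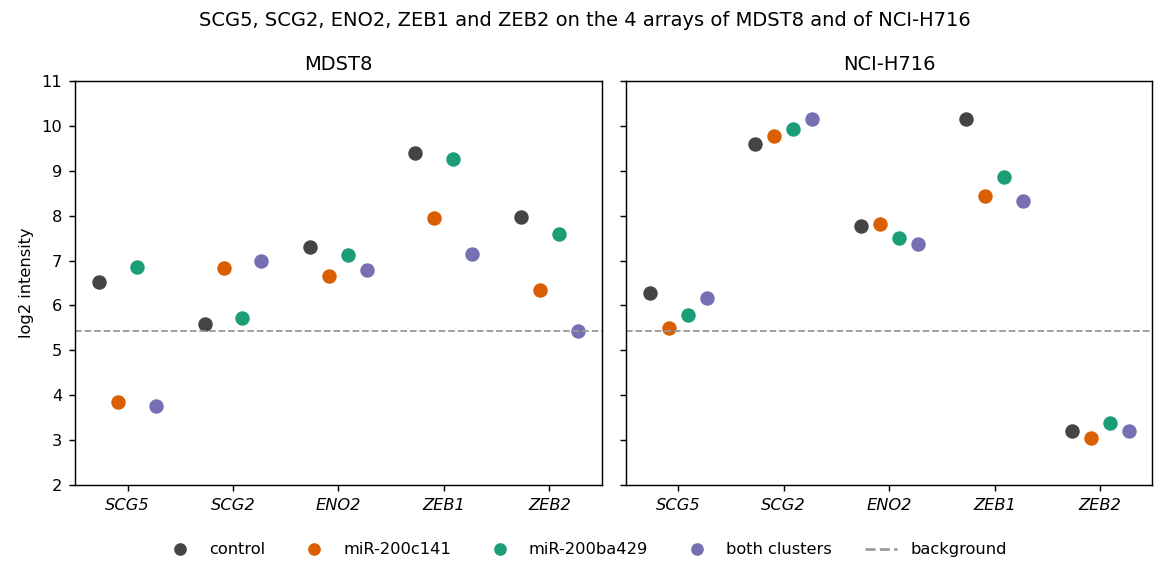
Levels (log2 intensity, vertical axis) of SCG5, SCG2, ENO2 and the repressors ZEB1 and ZEB2 on the 4 arrays of MDST8 (left) and of NCI-H716 (right). Each point is 1 array, coloured by construct, and the dashed line is background at 5.43. In MDST8 the arrays with miR200c141 were low for SCG5, ZEB1 and ZEB2 and high for SCG2, and in NCI-H716 the ZEB1 control stood more than 1 unit above the construct arrays.

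After the SCG5 and SCG2 values in MDST8 were seen, a further limma fit was made, with the presence of each cluster as a separate term in each line. Its 2 residual degrees of freedom come from how far both clusters together depart from the sum of the single ones in MDST8 and NCI-H716. In MDST8 the presence of miR200c141 went with -2.89 ± 0.32 for SCG5 (SE, adjusted p = 0.00955) and 1.26 ± 0.19 for SCG2 (adjusted p = 0.0284), where 0.319% of genes were called lower and 0.713% higher, 204 in all. That number rests on single arrays: it was 83 or 84 without any 1 NCI-H716 array, 370 without the MDST8 array with miR200ba429 or with both, and 2398 or 2393 without the MDST8 control or miR200c141 array. The presence of miR200ba429 went with 0.13 ± 0.32 and 0.15 ± 0.19, neither of which passed. The MDST8 levels of SCG5 with miR200c141 lay under background, so -2.89 and differences built on it are no exact folds. In NCI-H716 the presence of miR200c141 went with -0.20 ± 0.32 for SCG5 (adjusted p = 0.879) and 0.20 ± 0.19 for SCG2 (adjusted p = 0.781), and none of the 8 listed genes passed, where 0.131% of genes were called lower and 0.349% higher. The difference between those lines was -2.69 ± 0.45 for SCG5 (adjusted p = 0.0901) and 1.05 ± 0.27 for SCG2 (adjusted p = 0.259), so a difference between the lines was not established. Neither passed in HUTU-80, with both genes below background there. These p-values describe values already seen to stand out. The SCG2 call was lost without any single NCI-H716 array, at adjusted p of 0.137 to 0.142, while SCG5 passed in all alternatives run (adjusted p 0.000235 to 0.0338). The values at the low end come from fits without an MDST8 array, in which the spread is that of NCI-H716 alone, and so say nothing of the spread in MDST8.

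ZEB1, the miR-200 target, read 9.39 in the MDST8 control, 7.94 with miR200c141, 9.26 with miR200ba429 and 7.15 with both. ZEB2 read 7.97, 6.35, 7.60 and 5.42 on the same arrays. Of the 76 genes of the related lists, these were the ones past 1 unit on both MDST8 arrays with miR200c141. In the within-line fit ZEB1 gave -1.78 ± 0.28 in MDST8 (limma adjusted p = 0.0317). In NCI-H716 ZEB1 read 10.15, 8.43, 8.85 and 8.34 in the order control, miR200c141, miR200ba429 and both. In HUTU-80 ZEB1 read 9.87 in the control, 7.93 and 7.99 with miR200c141 and 8.75 with miR200ba429. As a measure of RNA quality, the 3′ minus 5′ log2 difference of ACTB was 2.02 on the MDST8 array with both clusters. It was 1.50 to 1.54 on the other MDST8 arrays, with 1.50 on the miR200c141 array. For GAPDH the same difference was 0.38 with both and 0.28 to 0.32 on the other MDST8 arrays. In NCI-H716, ACTB gave 2.63 with both and 2.33 to 2.40 on the other arrays. The HUTU-80 arrays gave 2.10 to 2.39 for ACTB. Of the keratins, KRT18 and KRT8 read higher on the MDST8 arrays with miR200c141 than on the others. KRT19 and KRT20 were below background on every MDST8 array. KRT18 read 9.89 in the MDST8 control, 11.75 with miR200c141, 10.55 with miR200ba429 and 11.79 with both. KRT8 read 4.61, 5.34, 4.81 and 5.58 in the same order, above background only with both. The summed level of the 12 colorectal epithelium markers ran from 48.7 to 51.2 over the MDST8 arrays, with the other 10 below background. The part of ZEB1 and ZEB2, of RNA quality and of these markers in the SCG5 and SCG2 values was not tested.

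Across the 8 samples with a construct, changes of SCG2 and SCG5 gave a Pearson r of -0.86, and the samples of a line share its control. The 2 MDST8 samples with miR200c141 are the only ones past 1 unit for either gene. The genes outside the list whose changes were most like those of SCG5 were ZSCAN5A (r = 0.965), ACADM and THBS1, and for SCG2 UBN2 (0.99), PRRC2B and NBAS. For CHGA they were WDR4 (0.994), TRDMT1 and RCC1L, for CHGB SYT17 (0.983), ABLIM1 and MSRB2, and for INSM1 GSTO2 (0.987), NOLC1 and LINC00667. For GCG they were LINC00525 (0.974), LBHD1 and TMEM138, and for ENO2 RRP7A (0.979), CYC1 and HGH1. With so few points and all genes searched, high values are common.

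Whether the change with any construct differed between the lines was tested over all genes by a moderated F in limma. None of the 8 listed genes passed, where 0.00506% of all genes (1 gene) did and 987 had an unadjusted p under 0.05. CHGB came nearest, with fitted changes of 0.82 for HUTU-80, 0.26 for MDST8 and -0.19 for NCI-H716 (unadjusted p = 0.0347, adjusted p = 0.935). On the HUTU-80 arrays CHGB read 4.05 in the control and 4.76, 4.85 and 4.92 with the constructs, all under background. In NCI-H716 it was lower than its control on all 3 construct arrays, by 0.11 to 0.24.

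In the related lists, as over all genes, construct calls appeared only with both clusters, where 2.33% of all genes were called higher and 3.81% lower. With only the control arrays and those of both clusters in the fit, every call below except that for ZEB1 was lost, at adjusted p of 0.0981 to 0.363, TPH1 at 0.134 and RAB3B at 0.14. Among the hormones, 2 of 14 rose (median 0.06 against 0.00 over all genes): NTS by 1.52 ± 0.40 (limma adjusted p = 0.0493), and TPH1, the gut serotonin-synthesis enzyme, by 0.87 ± 0.14, although it was below background on every array. The NTS call was lost in most alternatives and gave 0.64 without NCI-H716 (adjusted p = 0.311). In NCI-H716 NTS read 5.41 in the control, 7.29 with miR200c141, 6.83 with miR200ba429 and 8.12 with both, whereas in MDST8 it stayed at 2.84 to 3.45. Of 16 vesicle genes, RAB3B, a small GTPase of vesicle docking, rose by 1.72 ± 0.30 (adjusted p = 0.01) and SV2A, a vesicle glycoprotein, fell by 0.89 ± 0.19 on the log2 scale (adjusted p = 0.0245). RAB3B read 5.57 in the NCI-H716 control and 7.81 with both, and its call was lost without that control (adjusted p = 0.0504). Of 8 granin and processing genes, PTPRN2, a dense-core vesicle protein, fell by 0.72 ± 0.17 on the log2 scale (adjusted p = 0.0343). The SV2A call was lost without the HUTU-80 control, the NCI-H716 control (adjusted p = 0.101), or the array with both clusters of either line. The PTPRN2 call was lost without any single sample other than HUTU-80 miR200ba429, MDST8 miR200c141 and MDST8 miR200ba429, and without the NCI-H716 control its adjusted p was 0.0793. Of 9 repressors, ZEB1 fell by 2.11 ± 0.27 on the log2 scale (adjusted p = 0.00224). None passed among 14 endocrine transcription factors, 7 neural genes and 8 receptors and channels. Of 12 colorectal epithelium markers, KRT18, a simple-epithelium keratin, rose by 1.48 ± 0.23 (adjusted p = 0.00659), a call lost without the MDST8 array with both clusters (adjusted p = 0.0547).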

How the data were processed

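The arrays were Affymetrix U133 Plus arrays of biotin-labelled RNA. Per probe set, a log2 intensity was deposited, and the submitters' processing notes name RMA for it. The sources used here give no software, version or settings. Values were used as deposited and run from 2.048 to 13.771, with array medians of 3.595 to 3.662. Groups came from the sample titles.

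Of 54715 probe sets, 40920 name 1 gene in the platform annotation, 864 several and 12931 none. Each of the 19774 genes was represented by its probe set of highest mean. PCSK1 and NEUROD1 are not analysed here. Genes of the related lists with no probe set named for them were left out of the counts.

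Comparisons used limma 3.58.1 in R 4.3.3, with a variance trend, and p-values were adjusted by Benjamini-Hochberg across the 19774 genes, with a threshold of 0.05. All limma p-values are two-sided. The design has no replicates within a line and construct, so cell line was a fixed term. For the single clusters this pairs each sample with the control of its line. HUTU-80 had no array of both clusters, so the fitted difference with both also draws on the HUTU-80 and single-cluster arrays. The HUTU-80 pair with miR200c141 was averaged, since the titles do not say what its ratios are. That pair had a median absolute difference of 0.16 and 0.364% of genes past 1 log2 unit. Per-line differences of 2 arrays have no test. Precision is limited by how few arrays there were. The fits were also run on simulated data with known changes and independent normal noise. The outcome is not given here and no result above rests on it.

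Genes named were the listed genes, the related-list genes past 0.05 with a construct, the 3 of highest level in NCI-H716 per list, and the 3 most correlated genes per listed gene above background. The members and lists were chosen with earlier results of these data known. Alternatives were the mean of all probe sets, the HUTU-80 arrays kept separate, no variance trend, a background filter, median centring, the groups compared alone, no line term, other background limits, and each line or sample left out. Motifs were counted in RefSeq promoters, 7 of 10 genes having an entry.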

Additional observations from a re-analysis of the deposited data

How the results depend on the processing

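The count of listed genes called stayed at 0 in the construct comparisons and the test between lines under every alternative run. In the main fits 6.14% of all genes passed with both clusters, 0% in the other construct comparisons and 0.00506% in the test between lines. A count of 0 therefore says little about the listed genes. In the line comparisons the count moved from 6 to between 6 and 7 for NCI-H716 against HUTU-80, from 7 to between 6 and 8 for NCI-H716 against MDST8, and from 7 to between 5 and 7 for MDST8 against HUTU-80. The shares of all genes called in the main fits were 45.6%, 51.7% and 43.3% in that order. The number of listed genes above background in the HUTU-80 control moved from 1 to 4 with background at the 95th percentile of the control probe sets. Without the replicate block for the line, 0 listed genes were called in each construct comparison. With both clusters that fit gave ENO2 0.42, NTS -0.12, PTPRN2 0.62 and SV2A 0.96, all reversed, because the groups hold different lines. Leaving out single samples or lines reversed small values: with miR200ba429, SCG2 ran from -0.21 to 0.30 and SCG5 from -0.82 to 0.39. For miR200c141 against miR200ba429, ENO2 ran from -0.11 to 0.29 and SCG2 from -9e-04 to 0.63. For NCI-H716 against HUTU-80, GCG ran from -0.098 to 0.064. For MDST8 against HUTU-80, INSM1 ran from -0.064 to 0.19, and the mean of all probe sets gave -0.048. SYP in NCI-H716 against HUTU-80 passed with that mean (adjusted p = 0.034), separate HUTU-80 arrays (0.0351), no trend (0.0351) and without the MDST8 control (0.0279). The causes were not tested. Of 25 fitted construct values of the other 5 genes, 15 changed sign under some alternative and 0 crossed the threshold. Signal near background limits SCG5, SYP and the HUTU-80 levels other than GCG, which lies near the top of the scale.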

Other observations

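Some genes of the related lists, named after their values were seen, also differed among the MDST8 arrays. CCK, the cholecystokinin gene, read 7.41 in the MDST8 control and up to 8.85 on a construct array, and was below background in both other lines. VIP, a neuropeptide, read 3.02 in the MDST8 control and reached 6.03 on 1 array, its only level above background in the series. VGF, a granin-like neuropeptide precursor, read 6.03 in the MDST8 control and as low as 4.44 with a construct, and NKX2-2, an endocrine transcription factor, 6.82 and as low as 5.24. None of these passed the test in any construct comparison.

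In NCI-H716, ABCC8 read 3.22 in the control, 5.87 with miR200c141, 3.62 with miR200ba429 and 5.29 with both, and NOTCH1, a receptor that restrains endocrine fate in the gut, read 6.30, 4.96, 5.39 and 5.03. ABCC8 exceeded background only with miR200c141 and NOTCH1 only in the control. Both passed 1 unit on both arrays with miR200c141, ABCC8 upward and NOTCH1 downward, where 1.21% and 0.632% of all genes did. Neither gene passed the test in any construct comparison. REST, the repressor of neuronal genes, read 8.90, 8.71 and 7.01 in the HUTU-80, MDST8 and NCI-H716 controls, while its partner RCOR1 read 9.64, 7.85 and 10.38 and HES1, a Notch-induced repressor, 8.02, 6.55 and 9.49 in the same order. Of the 9 repressors, 4 were higher and 3 lower in NCI-H716 than in HUTU-80, where 20.5% and 25.1% of all genes were called. The higher call for SNAI2 and the lower call for ZEB2 compared levels that were all below background. EPCAM, an epithelial adhesion protein, ran from 4.42 in the HUTU-80 control to 10.63 on a construct array of that line. Of the 12 colorectal epithelium markers, only EPCAM, KRT8 and KRT18 exceeded background on any HUTU-80 array. EPCAM was below background on every MDST8 array and passed the test in no construct comparison. CHGA, CHGB and INSM1 were below background on every HUTU-80 array.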
